A study of Mus musculus with 4 samples.

Results

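The Pax genes encode transcription factors that bind DNA through a paired domain and direct the formation of organs and cell lineages in the embryo. The regions described here are the rows of a Ring1b ChIP-seq table that overlap the windows set around Pax1, Pax2, Pax3, Pax5, Pax6, Pax7, Pax8 and Pax9 on the mouse build mm9. There were 11 such regions among 6371 in the table: 4 at Pax5, 3 at Pax2, 3 at Pax8 and 1 at Pax3. No row overlapped the windows of Pax1, Pax6, Pax7 or Pax9. Ring1b was measured in C3H10T1/2 cells, a mesenchymal progenitor line derived from C3H mouse embryos, at passages 10 to 15. Both kinds of cells carried a stable transgene for H3.3 with a FLAG-HA tag. In the K36M cells lysine 36 of this histone is replaced by methionine, and in the WT cells it is the wild type. Each form of H3.3 had 1 Ring1b library, and the question the series addresses is how Ring1b is distributed over the genome in the 2 kinds of cells. The sources used here give neither the promoter of the transgene nor whether a line is 1 clone.

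Ring1b is the catalytic subunit of Polycomb repressive complex 1 (PRC1), which ubiquitinates histone H2A and compacts chromatin. In mammals PRC1 is found mostly at CpG-rich promoters of developmental regulators that are silent in the cell at hand, and Pax genes are textbook examples. Textbooks sort the family by protein architecture: Pax2, Pax5 and Pax8 have a partial homeodomain, Pax3 and Pax7 a complete one together with an octapeptide, Pax6 a complete homeodomain without the octapeptide, and Pax1 and Pax9 no homeodomain. H3K36 methylation, which K36M histones are known to reduce, opposes the Polycomb mark H3K27 methylation on the same histone tail.

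The regions fell on the subgroups unevenly. All 3 genes of the Pax2, Pax5 and Pax8 subgroup had regions, 10 of the 11, whereas 1 of the 2 genes Pax3 and Pax7 had a region, and neither Pax1, Pax9 nor Pax6 had one. The windows differed in length: the shortest, at Pax9, ran from 57.76 to 57.85 Mb, and the longest, at Pax5, from 44.51 to 44.76 Mb. These counts are not adjusted for window length, and whether they differ between subgroups beyond it was not tested. Because the table lists regions associated with peaks of the WT library, a gene with no row is a gene with no listed region, and its Ring1b level was not analysed here in either kind of cell. No mm9 gene annotation was used, so a region is assigned to a gene by the window alone and may lie in the gene, beside it or in a neighbour.

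Promoters from RefSeq (build GRCm38) were set beside this list because PRC1 is known for CpG-rich promoters. Sequences for 7 of the 8 genes, all but Pax3, were matched, with 10 annotated starts. Those of 3 genes are shown: Pax5, the gene with the largest summed WT level, Pax8, whose promoter is poorer in CpG, and Pax6, whose window holds no row. Each line gives the 250 bases before the first annotated start, 5′ to 3′ on the gene's strand, and capitals mark each CG dinucleotide.
Pax5, chr4:44710695-44710944, minus strand: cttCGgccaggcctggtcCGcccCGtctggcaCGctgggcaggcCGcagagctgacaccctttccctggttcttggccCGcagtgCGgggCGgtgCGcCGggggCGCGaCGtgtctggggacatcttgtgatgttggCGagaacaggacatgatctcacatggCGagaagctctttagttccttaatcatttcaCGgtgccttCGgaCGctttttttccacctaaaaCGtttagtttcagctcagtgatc
Pax8, chr2:24475600-24475849, minus strand: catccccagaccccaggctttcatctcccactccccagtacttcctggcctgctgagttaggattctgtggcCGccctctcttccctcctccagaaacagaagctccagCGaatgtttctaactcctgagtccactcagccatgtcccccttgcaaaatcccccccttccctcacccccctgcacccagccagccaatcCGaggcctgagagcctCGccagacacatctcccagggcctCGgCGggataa
Pax6, chr2:105668646-105668895, plus strand: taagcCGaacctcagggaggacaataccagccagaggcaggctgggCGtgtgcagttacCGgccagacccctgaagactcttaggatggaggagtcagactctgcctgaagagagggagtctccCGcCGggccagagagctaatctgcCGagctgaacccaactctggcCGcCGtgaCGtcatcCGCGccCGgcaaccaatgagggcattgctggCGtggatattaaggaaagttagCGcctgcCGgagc

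The Pax5 promoter held 19 CpG in its 250 bases, and 19.7% of the 32851 promoters in the RefSeq table held at least as many. The Pax8 promoter held 6, equal to the median of all promoters, and the printed Pax6 promoter held 15. At Pax2, the other gene with several starts, the 3 starts had 5, 20 and 25 CpG. The genes with no region had promoters with 10 CpG at Pax1, 13 at Pax7, 7 at Pax9 and 15 at each of the 2 Pax6 starts. The starts of Pax2, Pax5 and Pax8 thus ranged from 5 to 25 CpG, with both ends at Pax2, and every value of the genes without a region lay in this range. The motif searched was CG, which reads the same on both strands, and 92.1% of all promoters held at least 1.

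The values are RPM, reads in a region per 1000000 reads, and are not divided by width unless given per kb. One read is worth 0.0317 RPM in the K36M library and 0.0335 RPM in the WT library, which implies depths of about 31.5 (K36M) and 29.9 (WT) times 1000000 reads if the scale is exactly that. The 11 regions held 42 to 211 reads each in the K36M library and 139 to 378 in the WT library. Intervals are exact 95% counting intervals. They cover counting error only: there is no replicate. Without molecular identifiers copies of 1 molecule cannot be told from separate molecules, and the sources used here state no duplicate treatment. No test of K36M against WT was possible.

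At every one of the 11 Pax regions the Ring1b level was lower in the K36M library than in the WT library, and each counting interval of the ratio lay below 1. Summed over the regions, the level was 39.2 RPM in K36M cells and 90.2 RPM in WT cells, 2.30-fold lower (interval 2.15 to 2.46). Over all 6371 regions, 85.1% had a lower value in K36M cells and 65.1% had an interval wholly below 1, and the summed level was 1.58-fold lower. All 11 Pax regions were at least 1.5-fold lower, against 53.4% of all regions, and 7 of the 11 were at least 2-fold lower, against 33.5%. None was at least 1.5-fold higher, against 1.22% of all regions. The median log2 ratio, taken as log2((K36M + 0.1)/(WT + 0.1)), was -1.41 over the Pax regions and -0.65 over the table, and 10 of the 11 lay below the table's median. The 3105 regions of 2000 to 12000 bp, a class that takes in every Pax region but one, had the same median of -0.65, with 54.2% at least 1.5-fold and 30.0% at least 2-fold lower. Because regions were chosen by WT peaks, a second library can lie lower at them for that reason alone, and its part in these ratios was not tested. With 1 library per form, a difference between the libraries as a whole cannot be told apart from one between the cells.

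**Figure D1:**
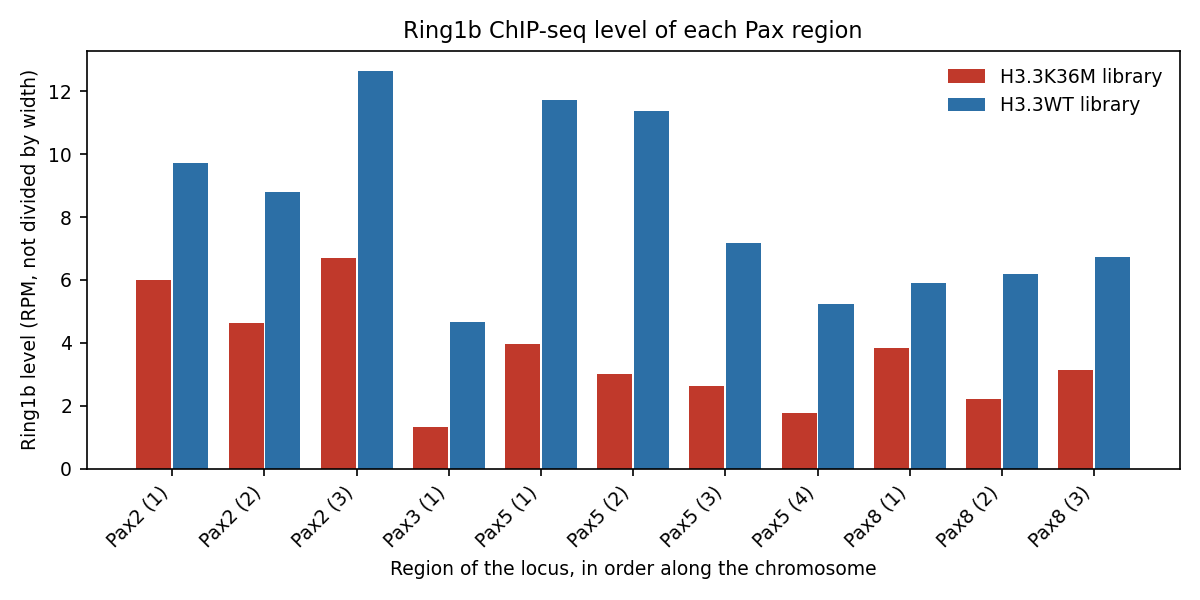
Ring1b level in RPM (vertical axis, not divided by width) of the 11 Pax regions, numbered within each locus in order along the chromosome, with the K36M library in red and the WT library in blue, 1 library each. The red bar is shorter in every pair, from 1.33 against 4.66 RPM at Pax3 to 6.69 against 12.7 RPM at the third Pax2 region.

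Pax5, which commits lymphoid progenitors to the B-cell lineage, had the highest summed WT level and a larger reduction in K36M cells than Pax2 and Pax8. Its 4 regions spanned 42600 bp of chromosome 4 and summed to 11.4 RPM in K36M cells and 35.5 RPM in WT cells, 3.12-fold lower (interval 2.77 to 3.53). The region at 44713601 to 44717400 held 3.96 RPM in K36M cells and 11.7 RPM in WT cells, 2.96-fold lower. It was the densest of the locus, at 1.04 RPM per kb in K36M cells and 3.09 RPM per kb in WT cells. The region at 44722201 to 44727400 held 3.01 RPM in K36M cells and 11.4 RPM in WT cells, a 3.78-fold lower level (ratio 0.264, interval 0.208 to 0.333), the largest reduction among the Pax regions. Only 9.95% of all regions in the table had a lower ratio. After a gap of 400 bp, the region at 44727801 to 44734000 held 2.63 RPM in K36M cells and 7.17 RPM in WT cells, 2.72-fold lower. The region at 44753401 to 44756200, set apart by 19400 bp, held 1.78 RPM in K36M cells and 5.23 RPM in WT cells, 2.94-fold lower. The 4 regions were thus 2.72-fold to 3.78-fold lower, at WT densities from 1.16 to 3.09 RPM per kb. In all 6 pairs the interval of the ratio between their ratios included 1. These intervals are wide and do not show that the ratios are equal: that of the second region over the third was 0.720 (0.505 to 1.03).

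Pax2, which is needed for the kidney, the optic stalk and the border of midbrain and hindbrain, had the smallest reduction of the 4 genes. Its 3 regions spanned 33600 bp of chromosome 19 and summed to 17.3 RPM in K36M cells and 31.2 RPM in WT cells, 1.80-fold lower (interval 1.62 to 2.01). The region at 44807401 to 44817800 held 5.99 RPM in K36M cells and 9.72 RPM in WT cells, 1.62-fold lower. With 10400 bp it was among the widest Pax regions, and it stood at 0.576 RPM per kb in K36M cells and 0.934 RPM per kb in WT cells. The region at 44823201 to 44829400 held 4.63 RPM in K36M cells and 8.81 RPM in WT cells, 1.90-fold lower. The region at 44829801 to 44841000, beginning 400 bp further on, held 6.69 RPM in K36M cells and 12.7 RPM in WT cells, 1.89-fold lower. These were the only Pax regions besides 1 at Pax8 that were less than 2-fold lower, and the log2 ratio of the first, -0.69, was close to the table's median. In all 3 pairs of Pax2 regions the interval of the ratio between their ratios included 1.

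Pax8, which is required for the thyroid and acts with Pax2 in the kidney, had the widest spread of ratios among its regions. Its 3 regions on chromosome 2 summed to 9.19 RPM in K36M cells and 18.8 RPM in WT cells, 2.05-fold lower (interval 1.77 to 2.37). The region at 24302401 to 24308800 held 3.84 RPM in K36M cells and 5.90 RPM in WT cells, 1.54-fold lower (interval 1.21 to 1.95). It was the only Pax region above the table's median log2 ratio, by 0.046. The region at 24308801 to 24309200, which touches it and is 400 bp wide, held 2.22 RPM in K36M cells and 6.20 RPM in WT cells, 2.79-fold lower (interval 2.11 to 3.73). The 1180 regions of 400 bp in the table had a median log2 ratio of -1.03 (quartiles -1.83 and -0.29), with 606 at least 2-fold lower, so that the -1.44 of this region lay between the quartiles of its class. At 5.55 RPM per kb in K36M cells and 15.5 RPM per kb in WT cells it was the densest Pax region in both libraries, and 98.3% of all regions had a lower WT density. Regions of 400 bp were denser than the table as a whole: their medians were 2.22 RPM per kb in K36M cells and 5.49 in WT cells. Their highest densities were 29.5 and 28.1 RPM per kb. The neighbour of the 400-bp Pax8 region stood at 0.599 RPM per kb in K36M cells and 0.921 RPM per kb in WT cells. The K36M over WT ratio of the 6400-bp region was 1.82 times that of the 400-bp region (interval 1.25 to 2.65), the only one of 12 pairs of regions within a locus whose interval excluded 1, with no adjustment for their number. With these 2 touching regions merged, the spread of log2 ratios at Pax8 was 0.09, against 0.83 for the regions as listed. The third region, at 24333801 to 24339600, held 3.14 RPM in K36M cells and 6.73 RPM in WT cells, 2.15-fold lower. Without the 400-bp region the locus was 1.81-fold lower (interval 1.53 to 2.15).

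Pax3, which acts in the neural crest and in muscle precursors, had a single region at chromosome 1, 78152601 to 78155600. It held 1.33 RPM in K36M cells and 4.66 RPM in WT cells, from 42 and 139 reads, a 3.50-fold lower level (interval 2.46 to 5.06). Its K36M level was the lowest of the 11 regions, and 11.5% of all regions had a lower K36M density than its 0.444 RPM per kb. Its WT density was 1.55 RPM per kb. The interval is the widest among the 4 genes, since the gene rests on 1 region of few reads.

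**Figure D2:**
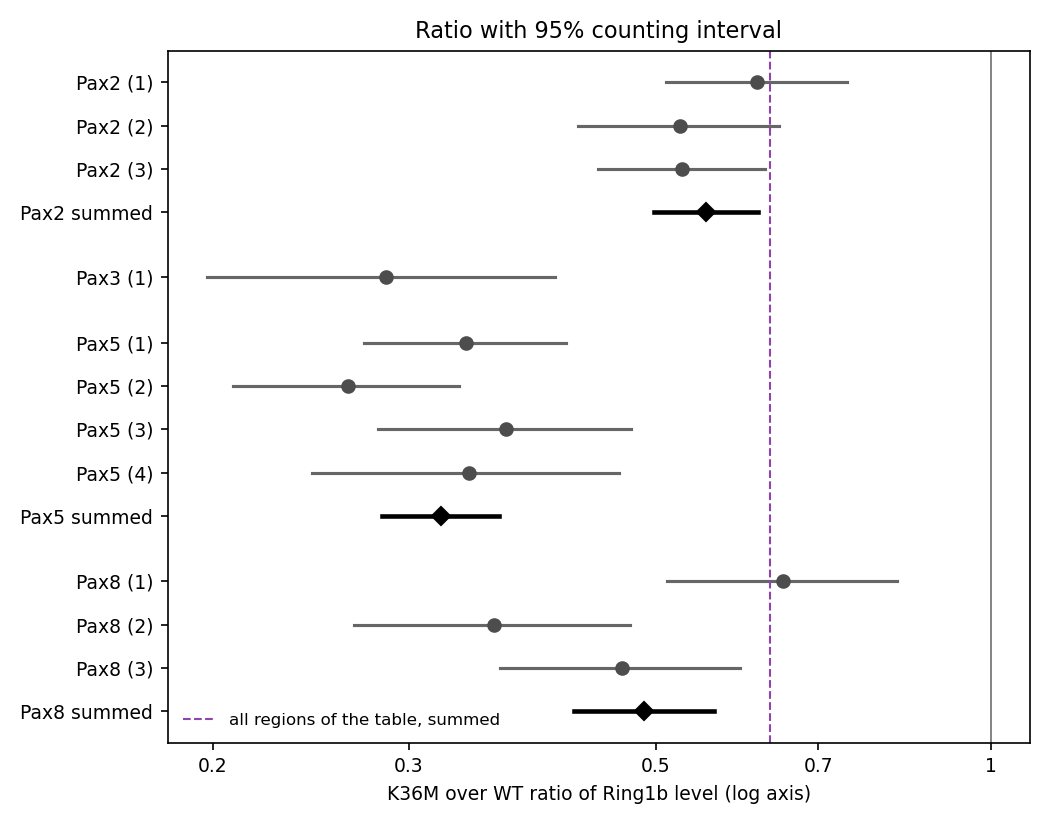
K36M over WT ratio of the Ring1b level (horizontal log axis) for each Pax region (circles) and for the sum of each locus with several regions (diamonds), with 95% counting intervals as bars; the solid line marks 1 and the dashed line the summed ratio of all 6371 regions, 0.634. All bars end left of 1, and the summed Pax5 ratio of 0.320 lies left of those of Pax8 (0.488) and Pax2 (0.555).

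By their summed ratios, the 4 genes fell into a pair with larger and a pair with smaller reductions. The ratio at Pax5 was 0.656 times that at Pax8 (interval 0.543 to 0.794), and the ratio at Pax2 was 1.73 times that at Pax5 (interval 1.47 to 2.04). Pax2 likewise stood 1.94 times above Pax3 (interval 1.34 to 2.86), and the ratio at Pax3 was 0.586 times that at Pax8 (interval 0.393 to 0.859). Pax3 and Pax5 did not differ beyond counting error (0.892, interval 0.604 to 1.30), nor did Pax2 and Pax8 (1.14, interval 0.949 to 1.36). These ratios between loci do not depend on how the libraries are scaled. The 6 intervals are not adjusted for their number, they compare these 2 libraries, and they were computed after the values were seen. They pool the reads of a locus and leave out the spread between its regions. The 400-bp Pax8 region, 2.79-fold lower, lay within the range of the Pax5 regions, 2.72-fold to 3.78-fold lower. The pairing does not follow the subgroups, since the summed ratio of Pax5 differed from those of both Pax2 and Pax8.

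The order of the genes by level was not the same in the 2 libraries. In K36M cells the summed level was highest at Pax2, with 17.3 RPM, followed by Pax5 with 11.4, Pax8 with 9.19 and Pax3 with 1.33 RPM. In WT cells Pax5 led with 35.5 RPM, followed by Pax2 with 31.2, Pax8 with 18.8 and Pax3 with 4.66 RPM. These sums depend on the covered length, which was 27.8 kb at Pax2, 18 kb at Pax5, 12.6 kb at Pax8 and 3 kb at Pax3.

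Per kb the order changed again. In K36M cells the densities were 0.730 RPM per kb at Pax8 (interval 0.648 to 0.819), 0.632 at Pax5 (0.569 to 0.701), 0.623 at Pax2 (0.571 to 0.677) and 0.444 at Pax3 (0.320 to 0.600). In WT cells they were 1.97 RPM per kb at Pax5 (1.86 to 2.10), 1.55 at Pax3 (1.30 to 1.83), 1.49 at Pax8 (1.37 to 1.62) and 1.12 at Pax2 (1.05 to 1.20). Neighbours in the K36M order had overlapping intervals throughout, whereas in the WT order Pax5 lay above Pax3 and Pax2 lay below Pax8 with intervals that did not overlap. Without its 400-bp region Pax8 stood at 0.572 RPM per kb in K36M cells (0.499 to 0.652) and 1.04 RPM per kb in WT cells (0.933 to 1.15). Its WT density was then below that of Pax2, with overlapping intervals, so the separation of Pax2 from Pax8 rests on the 400-bp region. The densities include background reads, and input libraries were not analysed, so how much of the remaining K36M density is Ring1b signal was not tested.

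**Figure D3:**
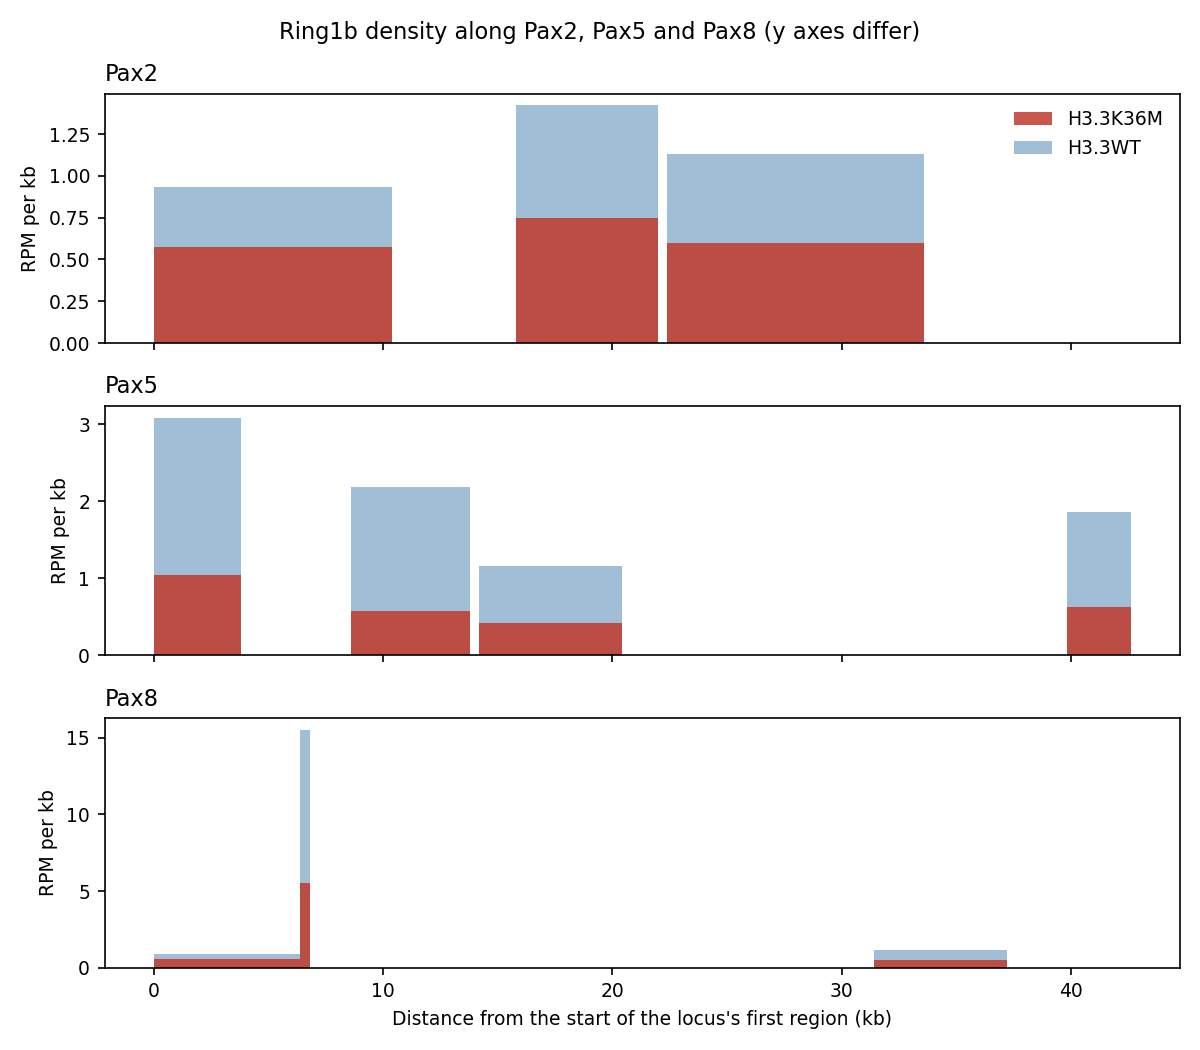
Ring1b density in RPM per kb (vertical axes, which differ between panels) along the regions of Pax2, Pax5 and Pax8, by distance in kb from the start of the first region of each locus; K36M bars in red are drawn in front of WT bars in blue, both from 0, and unlisted gaps are blank. The 4 Pax5 regions have K36M over WT ratios from 0.264 to 0.367, and the 400-bp Pax8 region rises to 15.5 RPM per kb in the WT library beside a neighbour at 0.921.

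Within the table, the Pax regions were wide, and most lay below the median density of all regions. Their median width was 5800 bp, against 3000 bp for all regions. All 11 were at or above the table's median WT level and 7 of them at or above its median K36M level. Per kb, 4 of the 11 reached the median WT density and 2 the median K36M density, which are 0.921 RPM per kb in K36M cells and 1.75 RPM per kb in WT cells over the table. Value rises with width across the table (Spearman's rho across regions 0.739 in K36M and 0.828 in WT), so the level of a region and its width cannot be told apart. The first Pax5 region and the 400-bp Pax8 region were the 2 above both median densities of the table. Regions of like width were less dense than the table: those of 2000 to 12000 bp had medians of 0.713 RPM per kb in K36M cells and 1.16 in WT cells. The 10 Pax regions of 2000 bp and over had medians of 0.588 and 1.29 RPM per kb. They thus lay below that class in K36M cells and above it in WT cells.

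**Figure D4:**
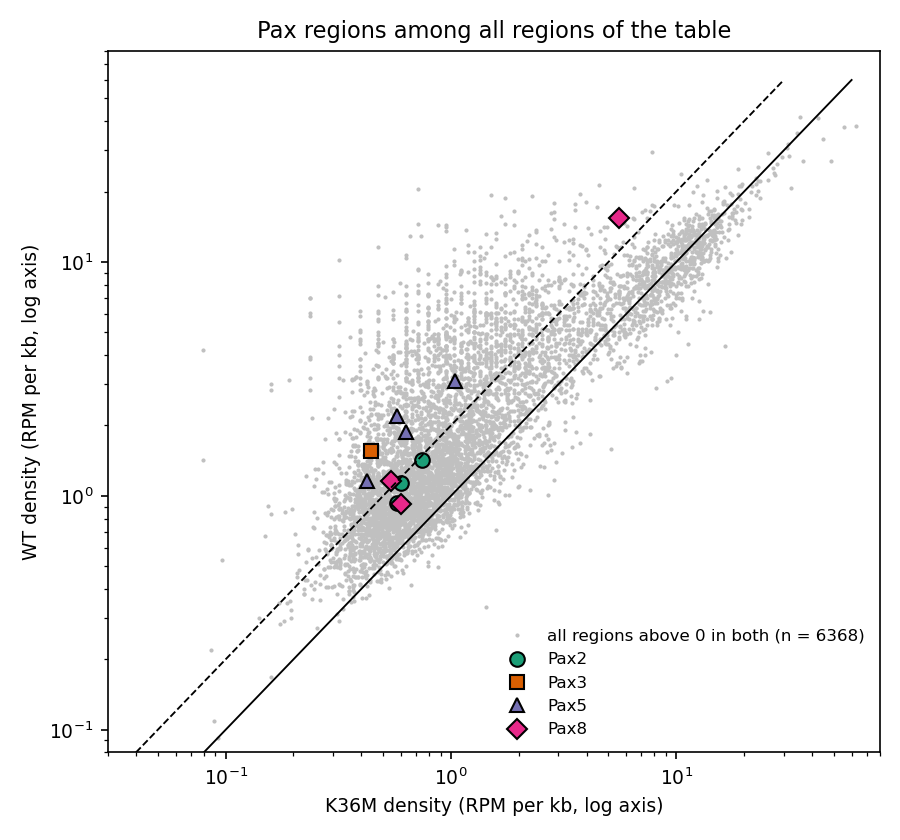
K36M density (horizontal axis) and WT density (vertical axis), both in RPM per kb on log axes, for the 6368 regions above 0 in both libraries (grey) and the 11 Pax regions (coloured by gene); the solid line marks equal density and the dashed line a 2-fold lower K36M density. All Pax regions lie on the upper left side of the solid line, where K36M density is lower than WT density. Those of Pax3 and Pax5, the 400-bp Pax8 region and the third Pax8 region lie beyond the dashed line, more than 2-fold lower in K36M.

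The listed rows nearest to the windows give the surroundings. At Pax8, rows lay close on both sides: the one 58.2 kb before the window held 5.10 RPM in K36M cells and 13.7 RPM in WT cells, 2.68-fold lower (interval 2.23 to 3.24). The row 44.8 kb after it held 6.53 RPM in K36M cells and 12.7 RPM in WT cells, 1.94-fold lower. The reduction at Pax8 lay between those of its neighbours, and its interval overlapped both of theirs.

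Pax5 stood alone, with no row within 500 kb outside its window. The nearest rows, 737.4 kb before and 779.8 kb after, were 1.66-fold and 1.25-fold lower, and their intervals (1.34 to 2.05 and 1.02 to 1.53) lay below the 2.77 to 3.53 of the Pax5 locus. The Pax3 region also had a neighbour of another kind: 104 kb after the window, a 1000-bp row held 2.06 RPM in K36M cells and 2.35 RPM in WT cells, a ratio whose interval included 1 (0.800-fold to 1.62-fold lower). At Pax2 the next row, 273.2 kb after the window, was 2.29-fold lower (interval 1.57 to 3.41), which overlaps the interval of the locus.

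The 4 windows with no row lay in stretches of different length. Pax9, which acts in the sclerotome and in the teeth, lay in a stretch of 11.5 Mb of chromosome 12 without a listed region, the longest of that chromosome and number 8 of the 4762 stretches between rows of the table. Pax6, the regulator of eye development, lay in a stretch of 4.62 Mb of chromosome 2, longer than 98.3% of all. Neither had a row within 1000 kb of its window. Pax7, which marks the stem cells of muscle, lay in a stretch of 1.48 Mb, and Pax1, which acts in the sclerotome with Pax9, in one of 0.936 Mb. The row 551.4 kb before the Pax7 window held 6.09 RPM in K36M cells and 7.47 RPM in WT cells, 1.23-fold lower, with a lower bound of 1.01-fold. The row 759 kb after it held 11.8 RPM in each library, 1.01-fold lower in K36M cells (interval 0.867 to 1.17).

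Listed rows near Pax1 were also lower in K36M cells. The nearest, 219 kb before the window, held 2.60 RPM in K36M cells and 8.38 RPM in WT cells, 3.22-fold lower (interval 2.50 to 4.19). It is the last of 6 touching rows at chromosome 2, 146911801 to 146921000, which together held 5.23 RPM in K36M cells and 38.2 RPM in WT cells, 7.30-fold lower (interval 6.20 to 8.65). In the RefSeq gene order on GRCm38, the protein-coding genes next to Pax1 are Nkx2-2 and Foxa2, and Pax9 lies next to Nkx2-9. Which gene the 6 rows belong to was not tested, and it need not be one of those named.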

How the data were processed

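Ring1b ChIP-seq values of 2 of the 4 libraries, 1 per form of H3.3, were used; the 2 input libraries were not analysed here. Per the labels' protocols, chromatin was fixed with formaldehyde, sonicated and precipitated with a Ring1b antibody. Bowtie 1.0.0 and mm9 are named, with no role given, per the submitters' processing notes; the sources used here state no peak caller, duplicate treatment or counting rule. The authors deposited columns headed RPKM, but all 6371 values of each library are whole multiples of 1 step within 0.01 reads, whatever the width, so they were treated as RPM. Division by the step gave whole reads. Starts are counted from 1.

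Regions were members if they overlapped a window at all. Ratios have exact Clopper-Pearson intervals at 95%, densities exact Poisson intervals, and ratios between loci conditional exact odds ratio intervals. The ratio interval was run on reads simulated with counting error alone, the error it assumes. That run could not test other variation between libraries. Folds are ratios of RPM; log2 ratios and fold counts use a pseudocount of 0.1 RPM, which understates changes of low values. All regions of loci with up to 5 were named. The members and lists were chosen with earlier results of these data known. A planned comparison of Pax protein sequences was not made. Python 3.11.15, pandas 2.3.3 and scipy 1.17.1 were used.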

Additional observations from a re-analysis of the deposited data

How the results depend on the processing

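No paired analysis was possible because each form of H3.3 has 1 library. The summed, median and per-gene log2 ratios stayed negative under every alternative tried. Since all 11 Pax regions were lower in K36M cells, most alternatives could not turn that sign. Only centring, or the row added by widening the windows, could have done so. Centring on the table's median, a shift of -0.65, left the summed log2 ratio over the 11 Pax regions at -0.55, against -1.20 as reported, and those of Pax2, Pax3, Pax5 and Pax8 at -0.19, -1.08, -0.98 and -0.37; 6 regions then remained at least 1.5-fold and 2 at least 2-fold lower. The first Pax8 region, at -0.61, turned to 0.046. A pseudocount of 1 RPM moved Pax3 from -1.73 to -1.28. Values per kb gave a summed log2 ratio of -1.09, because the pseudocount of 0.1 was then added to smaller values. Division of both libraries by the same width does not itself change a ratio. The sum rests partly on single genes: it was -1.43 without locus Pax2 and -0.97 without locus Pax5, and without Pax5 there were 7 regions at least 1.5-fold and 3 at least 2-fold lower, since 4 of the regions belong to it. Merging regions within 2000 bp joined the 2 touching Pax8 regions and cut the spread of log2 ratios at Pax8 to 0.09, against 0.83 as reported. A pseudocount of 0.01, leaving out the lowest 25% of regions by mean level or regions of 400 bp, and windows widened by 50 kb (which added 1 row, at Pax8) moved no summed log2 ratio of the set or of a gene beyond its counting interval. Leaving out the region with the highest WT value, run for Pax2, Pax5 and Pax8 only, did not move theirs beyond it either; Pax3 has no other region. Counting depth limits Pax3 most.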
